A study of Mus musculus with 12 samples.

Results

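The genes described here are 40 mouse genes for nucleolar proteins and ribosome assembly factors, listed by name. A gene's value is the median of its probe sets on the array, and 39 of the 40 genes had one, out of 14179 genes in all. Noc2l, listed with the 60S assembly factors, had no value here. The other 39 rest on 575 probe sets, and Rrs1 rests on 1. RNA came from granulocyte-monocyte precursors (GMPs), the bone marrow progenitors of granulocytes and monocytes, collected by flow sorting from C57BL/6 mice, and was amplified from very small inputs before hybridisation to 12 Affymetrix Mouse Gene 1.0 ST arrays. There were 3 arrays for each of 4 genotypes. They were wild-type mice (WT), mice without Gfi1 (KO), mice carrying wild-type human Gfi1 as a knock-in (wtKI) and mice with a variant of human Gfi1 knocked in (SNP). Gfi1 encodes a zinc-finger repressor of transcription, and the study sought genes that respond to the variant and may bear on acute myeloid leukaemia. The labels give no age or sex, no promoter or Cre, and do not state whether each array was a mouse of its own, so the p-values measure only the spread between these arrays, which may be technical.

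Ribosomes are assembled in the nucleolus. RNA polymerase I transcribes the long ribosomal RNA precursor there, small nucleolar RNPs of the box C/D and box H/ACA kinds guide its methylation and pseudouridylation, and a large particle, the small subunit processome, folds and cuts the part that becomes the 40S subunit. Other factors assemble the 60S subunit, and abundant proteins such as nucleolin and nucleophosmin organise the nucleolus. In blood progenitors this output follows growth and division, and MYC, a transcription factor that binds the E-box sequence, is known for driving many of these genes.

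Start-site sequences of the members were read as a description, and whether the members share regulation was not tested. The RefSeq table of start sites (build GRCm38.p6, 250 bases before to 50 after each start) had entries for 34 of the 39 members, 37 start sites in all. The E-box CACGTG, which is its own reverse complement, was in 7 of the 37 windows (18.9%) and in 7.15% of the 32851 windows of the whole table. Its place differed from what the 300-base count shows. In the 250 bases before the start alone it was in 2 of 37 (5.41%) and in 6.02% of all windows, and among matches reaching into the first 50 transcribed bases it was in 5 of 37 (13.5%) against 1.32%. The windows of the whole table were not limited to genes with a value here. The 7 members are shown because each carries the E-box, in 30 bases around it read 5′ to 3′ along the gene, with the E-box in capitals.
Nop2: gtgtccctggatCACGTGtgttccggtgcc
Utp20: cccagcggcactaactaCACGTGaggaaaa
Pes1: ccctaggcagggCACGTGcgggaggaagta
Mybbp1a: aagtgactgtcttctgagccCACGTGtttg
Tsr1: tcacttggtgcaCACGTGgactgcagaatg
Utp18: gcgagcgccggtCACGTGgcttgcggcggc
Wdr43: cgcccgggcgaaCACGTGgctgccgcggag
Counting the base before the start as -1 and the first transcribed base as 1, the E-box began at -60 in Nop2 (chr6:125131811-125131840, plus strand), 38 in Utp20 (chr10:88826765-88826794, minus strand), 3 in Pes1 (chr11:3963965-3963994, plus strand), 41 in Mybbp1a (chr11:72441347-72441376, plus strand), 25 in Tsr1 (chr11:74898092-74898121, plus strand), -20 in Utp18 (chr11:93885769-93885798, minus strand) and 18 in Wdr43 (chr17:71616220-71616249, plus strand). The ETS-type sequence CCGGAAGT, searched on both strands and not overlapping the E-box letters, was in 7 of 37 member windows (18.9%) and in 3.89% of all windows. Those members were Ebna1bp2, Gar1, Heatr1, Nhp2, Nip7, Tsr1 and Wdr3. Tsr1 was in both sets. A match is a description of letters and no evidence that a factor binds there.

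The 250 bases before the start are shown for Nop16 and Nhp2, the members with the lowest p in SNP against WT, with the ETS-type match of Nhp2 in capitals. They lie at chr13:54590075-54590324 (minus strand) and chr11:51619523-51619772 (plus strand) and are read along the gene.
Nop16: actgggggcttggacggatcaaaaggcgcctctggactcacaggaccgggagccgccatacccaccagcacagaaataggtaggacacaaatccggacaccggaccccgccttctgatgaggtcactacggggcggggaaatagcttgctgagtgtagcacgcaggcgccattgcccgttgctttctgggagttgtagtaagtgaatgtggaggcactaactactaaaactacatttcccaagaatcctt
Nhp2: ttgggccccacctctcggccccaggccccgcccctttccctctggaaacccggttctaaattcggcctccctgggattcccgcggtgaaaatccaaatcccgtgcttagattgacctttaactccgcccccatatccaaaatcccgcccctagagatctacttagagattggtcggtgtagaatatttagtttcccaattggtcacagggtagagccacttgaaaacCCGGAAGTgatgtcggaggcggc
The match in Nhp2 begins 23 bases before the start, and the Nop16 stretch holds neither motif. Noc4l and Nat10, also among the 4 members with the lowest p between the knock-ins, hold neither motif in the same 250 bases.

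Arrays SNP 1 and KO 1 stood apart from the rest. The median correlation with the other arrays over all probe sets was 0.633 for SNP 1 and 0.701 for KO 1, against 0.836 to 0.886 for the other 10. On SNP 1 the 16 measured late neutrophil markers averaged 10.91 (log2 signal) against 5.53 to 7.35 on the other 11 arrays, the 13 erythroid markers 9.48 against 5.86 to 7.35, and the 10 B-lineage markers 8.84 against 5.26 to 6.27. All of these markers were higher on SNP 1 than the mean of SNP 2 and SNP 3, and none lay below that array's 5th percentile of probe sets, where 0 to 8 markers of a list did on the other arrays. The 11 GMP markers averaged 8.40 on SNP 1 against 8.99 to 9.53, and none lay below the 5th percentile of any array. They did not move alike on SNP 1, where 7 of the 11 were below the mean of SNP 2 and SNP 3. Cd34 was at 7.35 there (10.73 on SNP 2, 10.26 on SNP 3) and Kit at 6.86 (9.06 and 8.49). Csf3r was higher, at 8.60 (6.90 and 6.62). KO 1 was above the mean of KO 2 and KO 3 in most markers of the same lists. The median difference was 1.27 for erythroid, 1.35 for late neutrophil and 0.60 for B-lineage markers. KO 1 was lower in 1 of 13 erythroid, 5 of 16 late neutrophil and 3 of 10 B-lineage markers. The Y-linked gene Eif2s3y was low on WT 3, wtKI 2 and wtKI 3 only, while every KO and SNP array had male levels. Gfi1 itself was at 5.59, 5.78 and 6.29 in WT, 6.43, 6.74 and 6.58 in KO, 6.28, 5.93 and 6.27 in wtKI and 6.65, 6.54 and 6.61 in SNP (log2 signal on arrays 1, 2 and 3 of each group, the order used throughout), so its gene value does not check the knock-out label. In such bulk samples fewer cells of a type and less RNA per cell cannot be told apart, and the part of the other cell types and of sex in the results below was not tested beyond the values given.

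Over the 39 members, SNP lay below both reference groups, and most of that distance came from SNP 1. The median member's offset from the WT mean was -1.51, -0.16 and -0.45 (log2) on SNP 1 to SNP 3. It was -0.01, -0.08 and 0.08 on the WT arrays, -0.51, 0.16 and 0.11 on the KO arrays and -0.20, -0.03 and -0.22 on the wtKI arrays. SNP 1 was therefore the lowest array, followed by KO 1 and SNP 3, and the other 9 arrays lay between -0.22 and 0.16. No member passed the threshold in any of the 4 comparisons (limma on all 12 arrays, Benjamini-Hochberg adjusted p under 0.05 over 14179 genes).

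**Figure D1:**
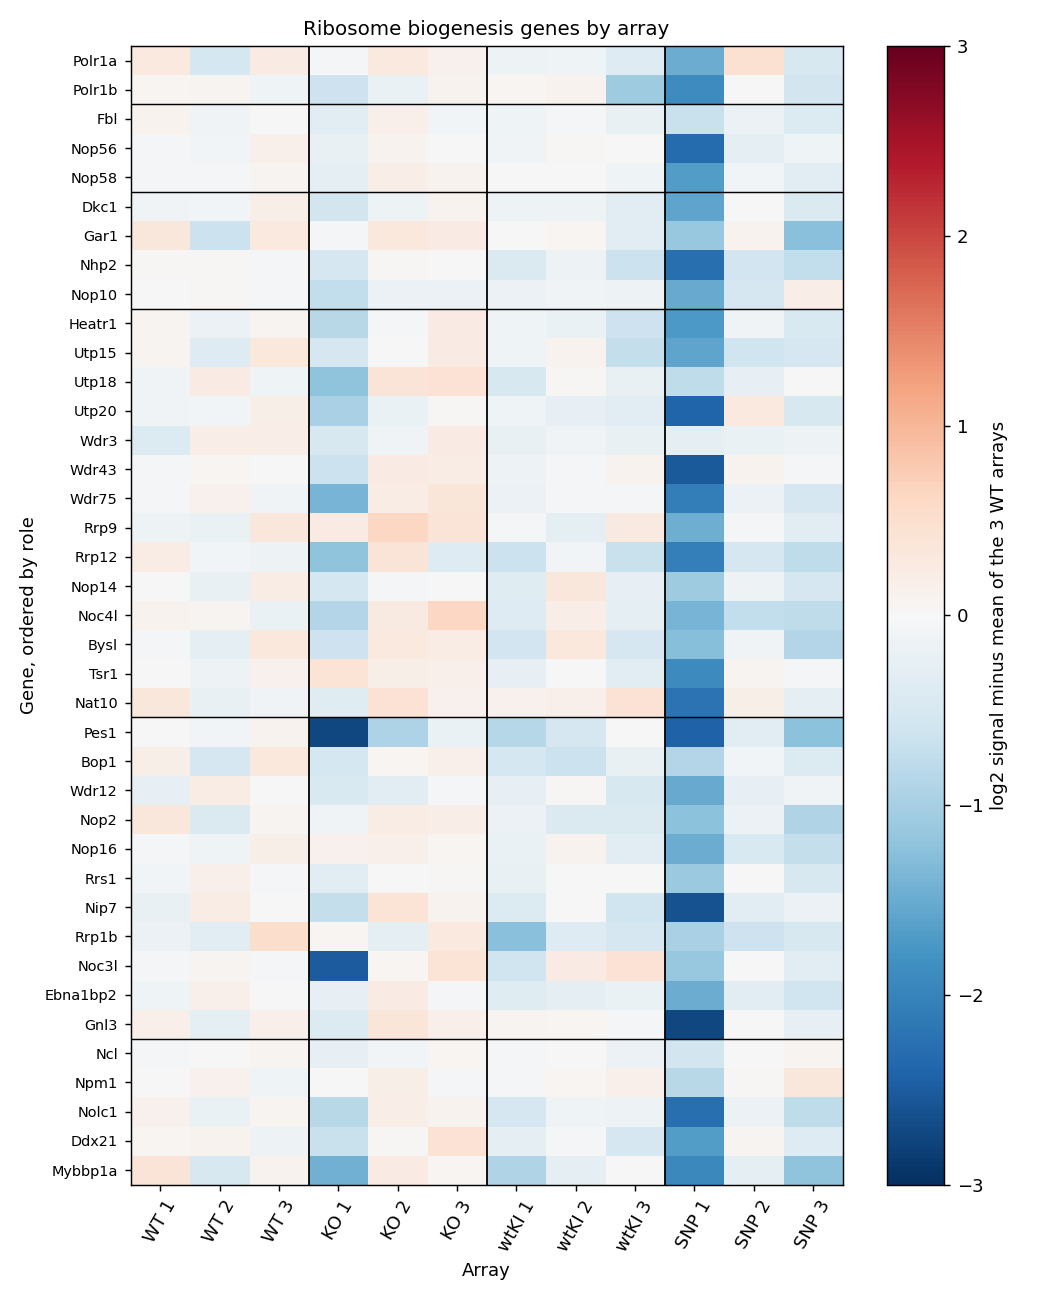
Log2 signal of each of the 39 members minus the mean of the 3 WT arrays (colour; blue lower, red higher), one column per array grouped by genotype, genes ordered by role with lines between roles. SNP 1 is blue for every gene, with a median of -1.51, and Pes1 and Noc3l on KO 1 are as dark.

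Between the knock-ins, 37 of 39 members had a lower mean in SNP than in wtKI, with a median difference of -0.52 (log2), while over all genes the median was -0.02 and 52.2% were lower. Bop1 (0.01 ± 0.29, SE) and Rrp1b (0.02 ± 0.30) were the exceptions, and both were lower too when the mean of their probe sets was used. None of the 39 passed (smallest limma adjusted p = 0.554), where 0.00705% of all genes did. At an unadjusted limma p under 0.05 there were 2 members, Nop16 and Noc4l (5.13%), both lower, where 4.91% of all genes were lower by that measure. Nop56, Noc4l and Nop16 had all 3 SNP arrays below all 3 wtKI arrays (7.69%, against 7.09% of all genes), so the members' share is near that of all genes by both counts. Without SNP 1 the median difference was -0.16, 24 of 39 members were lower, and the smallest adjusted p was 0.911. Members with both remaining SNP arrays below the wtKI arrays must include the same 3, and no other joined them (7.69%, where 11.3% of all genes lay so). With sex as a term and SNP 1 left out, the median was -0.01 with 21 of 39 lower.

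**Figure D2:**
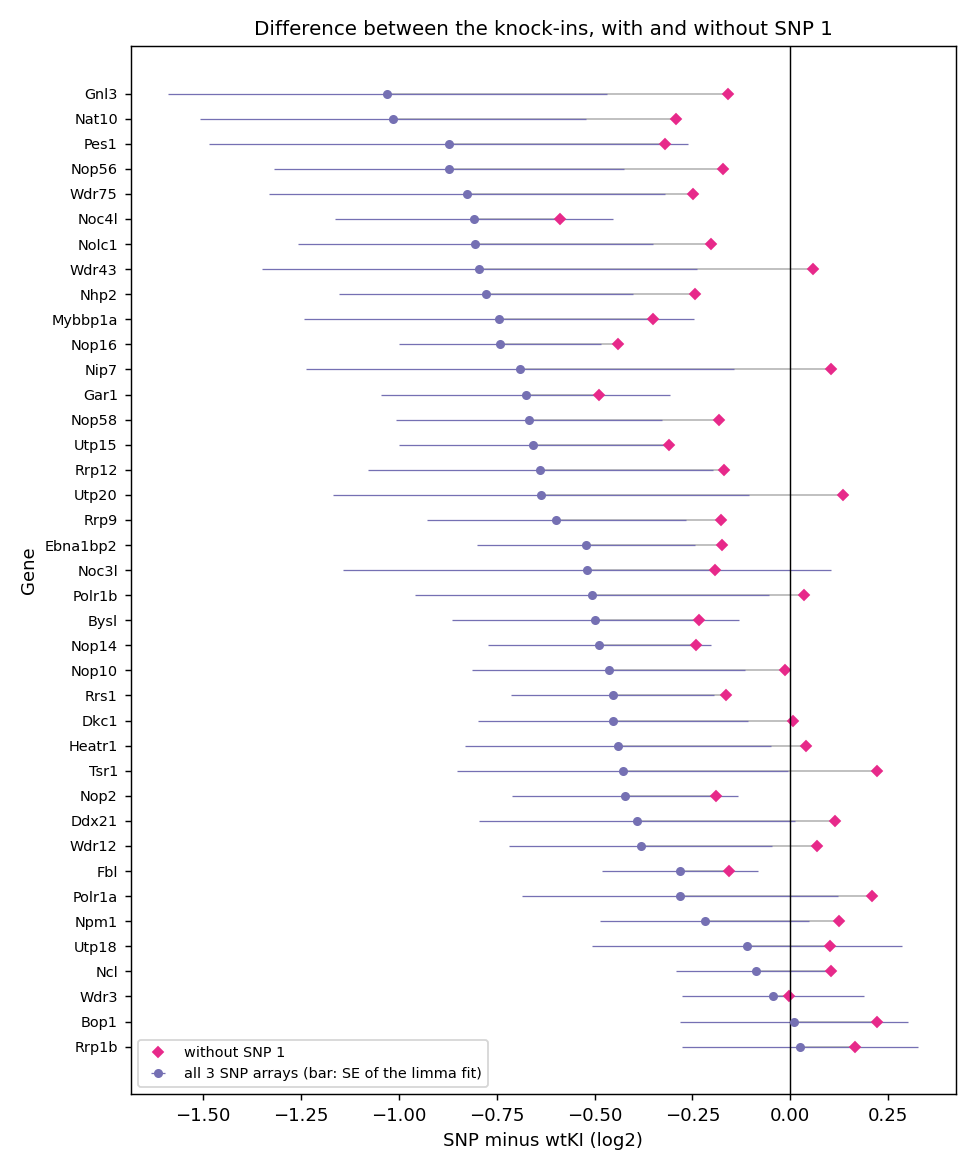
Difference of SNP minus wtKI in log2 signal for the 39 members, ordered by size: circles with all 3 SNP arrays and bars of 1 SE from limma, diamonds without SNP 1. The circles run from -1.03 for Gnl3 to 0.02 for Rrp1b, and the diamonds lie closer to 0 for most genes and above 0 for 15 of 39.

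Against WT the distance was larger. All 39 members had a lower mean in SNP, with a median of -0.76 against -0.01 over all genes, of which 51% were lower. No member passed (smallest limma adjusted p = 0.272), and 0.0% of all genes did. The unadjusted limma p was under 0.05 and the mean lower for 10 members (25.6%) and for 8.32% of all genes. In 12 members (30.8%) the 3 SNP arrays lay below the 3 WT arrays, where 12% of all genes did so. These were Fbl, Nop56, Nop58, Nhp2, Utp15, Wdr75, Rrp12, Noc4l, Pes1, Nop16, Rrp1b and Ebna1bp2. Leaving out SNP 1 can only add members to these 12, and it added none (30.8%, where 16.7% of all genes then lay so). Without SNP 1 the median was -0.25 with 35 of 39 lower, and 2 members, Nop16 and Nhp2, kept an unadjusted limma p under 0.05. Read from the probe set with the highest mean, the median with all arrays was -0.45. This comparison shares its SNP arrays with SNP minus wtKI and its WT arrays with the comparisons below.

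The wild-type human knock-in was slightly below WT. In wtKI minus WT the median member difference was -0.22, with 35 of 39 members lower, against -0.01 over all genes. The smallest limma adjusted p among members was 1, and 0.00705% of all genes passed. With all arrays, Rrp1b alone had an unadjusted limma p under 0.05 (-0.72 ± 0.30, adjusted p = 1), which is 2.56% of members where 1.41% of all genes were lower by that measure. SNP 1 enters the shared spread of this fit. The unadjusted limma p of Nhp2 was 0.296 with all arrays, 0.07 without SNP 1 and 0.0359 (adjusted 0.667) with KO 1 also left out. In 6 members (15.4%), namely Dkc1, Nhp2, Nop10, Utp20, Rrp1b and Ebna1bp2, the wtKI arrays lay below all WT arrays, where 6.48% of all genes did. The size depended on how probe sets were combined, since the median was -0.06 when each gene was read from its probe set with the highest mean.

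In the knock-out the direction of the members turned on KO 1. In KO minus WT, 27 of 39 members were lower with a median of -0.09 (-0.02 over all genes), the smallest limma adjusted p was 1, no member had an unadjusted p under 0.05, and 0.00705% of all genes passed. Without SNP 1, which enters the shared spread, Pes1 had an unadjusted limma p of 0.0336 (adjusted 0.687). With KO 1 also left out it was 0.124. Nop10 and Pes1 (5.13%) lay below all WT arrays on the 3 KO arrays, near the 5.78% of all genes, and Tsr1 lay above. Without KO 1 the median turned to 0.11 and 10 of 39 were lower. Then 8 members (20.5%) had both KO arrays above all WT arrays, namely Nop58, Utp18, Wdr43, Wdr75, Rrp9, Noc4l, Tsr1 and Gnl3, where 11.5% of all genes did.

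The RNA polymerase I subunits were lowest on SNP 1, and SNP 2 was not low for either. Polr1a, the largest catalytic subunit, was at 8.04, 7.21 and 7.98 in WT, 7.69, 8.04 and 7.88 in KO, 7.60, 7.62 and 7.36 in wtKI and 6.26, 8.19 and 7.27 in SNP. Polr1b, the second catalytic subunit, was at 7.78, 7.81 and 7.59 in WT, 7.11, 7.52 and 7.84 in KO, 7.79, 7.83 and 6.65 in wtKI and 5.83, 7.74 and 7.17 in SNP. SNP 1 was the lowest of the 12 arrays for both, SNP 2 was the highest for Polr1a and within the WT range for Polr1b, and the groups overlapped. SNP minus wtKI was -0.28 ± 0.40 for Polr1a and -0.51 ± 0.45 for Polr1b (log2 ± SE of the limma fit, 3 arrays a group, as in all such differences), and 0.21 and 0.04 without SNP 1. wtKI 3 also had a low value for Polr1b. SNP minus WT was -0.50 ± 0.40 and -0.81 ± 0.45, or -0.01 and -0.27 without SNP 1. KO minus WT was 0.13 ± 0.40 and -0.24 ± 0.45, or 0.22 and -0.04 without KO 1.

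The box C/D core, which methylates ribosomal RNA, had all SNP arrays below all WT arrays in all 3 of its members, where 12% of all genes did. Leaving out SNP 1 cannot undo that order, so it adds no second result. The margins were small, as for Nop58, with SNP 2 at 9.55 and WT 2 at 9.58. Fibrillarin (Fbl), the methyltransferase, was at 11.19, 10.97 and 11.09 in WT, 10.75, 11.25 and 11.01 in KO, 10.95, 11.03 and 10.87 in wtKI and 10.42, 10.90 and 10.69 in SNP. Its SNP arrays lay below the WT arrays, yet SNP 2 lay within the wtKI range, and SNP minus WT was -0.42 ± 0.20 (limma adjusted p = 0.35), or -0.29 without SNP 1. Nop56, a scaffold protein of the particle, was at 9.94, 9.91 and 10.16 in WT, 9.78, 10.12 and 10.02 in KO, 9.89, 10.05 and 9.99 in wtKI and 7.71, 9.74 and 9.87 in SNP. All SNP arrays were below all wtKI and WT arrays, but the low value of SNP 1 made most of the difference between the knock-ins of -0.87 ± 0.45, which was -0.17 without it. Nop58, the partner of Nop56, had a SNP minus wtKI difference of -0.67 ± 0.34 (-0.18 without SNP 1) and a SNP minus WT difference of -0.70 ± 0.34 (-0.22 without SNP 1). In KO minus WT the 3 genes differed by -0.08, -0.03 and 0.02, and by 0.04, 0.06 and 0.16 without KO 1. The first 3 differences were smaller than their standard errors of 0.20, 0.45 and 0.34. These errors share their spread with the SNP arrays, and were 0.18, 0.17 and 0.18 without SNP 1.

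Of the box H/ACA core, which makes pseudouridine in ribosomal RNA and also binds telomerase RNA, Nhp2 departed most. Nhp2 was at 9.80, 9.80 and 9.71 in WT, 9.27, 9.79 and 9.77 in KO, 9.34, 9.61 and 9.12 in wtKI and 7.51, 9.19 and 9.04 in SNP. Its wtKI arrays all lay below the WT arrays (-0.41 ± 0.37), and SNP minus WT was -1.19 ± 0.37 (limma adjusted p = 0.272), and -0.65 without SNP 1. Only SNP 2 reached the wtKI range, and SNP minus wtKI was -0.78 ± 0.37 (-0.24 without SNP 1). Dyskerin (Dkc1), the pseudouridine synthase, was at 9.23, 9.26 and 9.51 in WT, 8.78, 9.19 and 9.43 in KO, 9.19, 9.18 and 8.99 in wtKI and 7.75, 9.34 and 8.91 in SNP. SNP 2 lay inside the WT range for Dkc1, and the difference between the knock-ins was -0.45 ± 0.34 with SNP 1 and 0.01 without. Gar1, which binds the synthase and helps the particle release its substrate, was at 9.03, 8.03 and 8.97 in WT, 8.63, 8.98 and 8.93 in KO, 8.69, 8.73 and 8.35 in wtKI and 7.53, 8.79 and 7.41 in SNP. Here SNP 3 and SNP 1 were the lowest arrays and WT 2 was also low, so the groups overlapped (-0.68 ± 0.37, -0.49 without SNP 1). Nop10, the smallest subunit, had KO arrays all below WT (-0.36 ± 0.35, or -0.18 without KO 1) and a SNP minus wtKI difference of -0.46 ± 0.35 (-0.01 without SNP 1).

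The small subunit processome and 40S assembly factors were the largest role group, and all 14 had a lower mean in SNP than in wtKI, with a median of -0.62. It was -0.17 without SNP 1, when 9 of 14 were lower. Heatr1, a factor of the processome that is linked to ribosomal DNA transcription, was at 9.25, 8.997 and 9.24 in WT, 8.33, 9.10 and 9.40 in KO, 9.03, 8.96 and 8.54 in wtKI and 7.44, 9.05 and 8.71 in SNP. Wdr43, a member of the same early subcomplex, was at 9.86, 9.94 and 9.88 in WT, 9.25, 10.14 and 10.12 in KO, 9.74, 9.86 and 10.01 in wtKI and 7.37, 10 and 9.86 in SNP. Utp20, a very large helical scaffold, was at 7.73, 7.77 and 8.03 in WT, 6.87, 7.65 and 7.87 in KO, 7.72, 7.60 and 7.53 in wtKI and 5.44, 8.14 and 7.37 in SNP. In these 3 genes SNP 1 was the lowest of the 12 arrays and SNP 2 and SNP 3 did not separate from the WT and wtKI arrays. Without SNP 1 the difference between the knock-ins went from -0.44 to 0.04 for Heatr1, from -0.79 to 0.06 for Wdr43 and from -0.64 to 0.13 for Utp20. Utp15 and Wdr75, also of that early subcomplex, kept a negative difference (-0.31 and -0.25 without SNP 1, from -0.66 and -0.83). Utp18 and Wdr3, members of another processome subcomplex, differed by -0.11 ± 0.40 and -0.04 ± 0.23 with all arrays and by 0.10 and -0.003 without SNP 1.

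Noc4l, which works with Nop14 in 40S assembly, kept most of its difference between the knock-ins without SNP 1. It was at 7.48, 7.45 and 7.17 in WT, 6.49, 7.64 and 7.99 in KO, 6.99, 7.56 and 7.08 in wtKI and 5.96, 6.63 and 6.61 in SNP. The SNP arrays lay below every WT and wtKI array, SNP minus wtKI was -0.81 ± 0.36 (limma adjusted p = 0.554), and it was -0.59 without SNP 1. KO 1 was below the SNP 2 and SNP 3 values while KO 2 and KO 3 were the highest of the 12 arrays. Its partner Nop14 differed by -0.49 ± 0.29 (-0.24 without SNP 1).

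Rrp9, a protein specific to the U3 particle of the processome, had the largest positive difference of any member in KO minus WT by the median of probe sets, 0.42 ± 0.33 with an adjusted p of 1. By the mean of probe sets it was 0.05, and Rrp1b was then the largest at 0.28. Rrp9 was at 6.92, 6.88 and 7.41 in WT, 7.31, 7.70 and 7.46 in KO, 7.02, 6.80 and 7.33 in wtKI and 5.61, 7.003 and 6.74 in SNP. KO 2 and KO 3 lay above all WT arrays and KO 1 within their range. Rrp12, a factor for export of the subunits, was at 7.65, 7.33 and 7.26 in WT, 6.20, 7.80 and 7.02 in KO, 6.77, 7.33 and 6.74 in wtKI and 5.37, 6.90 and 6.66 in SNP. Its SNP arrays lay below the WT arrays (-1.10 ± 0.44, -0.64 without SNP 1), wtKI 1 and wtKI 3 overlapped them, and KO 1 was far below KO 2. Bysl, a 40S assembly factor, was at 7.79, 7.53 and 8.15 in WT, 7.19, 8.11 and 8.04 in KO, 7.25, 8.12 and 7.31 in wtKI and 6.54, 7.71 and 6.94 in SNP. wtKI 1 and wtKI 3 lay among the SNP values and wtKI 2 near the highest WT array, and its SNP minus wtKI difference was -0.50 ± 0.37 (-0.23 without SNP 1).

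Tsr1, a late 40S factor, was at 9.16, 9.01 and 9.30 in WT, 9.57, 9.33 and 9.31 in KO, 8.90, 9.17 and 8.81 in wtKI and 7.24, 9.25 and 9.12 in SNP. All KO arrays lay above all WT arrays by a small margin (0.25 ± 0.42, or 0.16 without KO 1), KO 1 being the highest array of the 12, and SNP 2 and SNP 3 lay within the WT range. Without SNP 1 its difference between the knock-ins changed from -0.43 to 0.22. Nat10, which acetylates cytidines of small subunit RNA, was at 8.22, 7.66 and 7.76 in WT, 7.52, 8.32 and 8.02 in KO, 8.01, 8.04 and 8.30 in wtKI and 5.66, 8.07 and 7.58 in SNP. SNP 1 was again the lowest array, SNP 2 lay among the wtKI values and SNP 3 below them, and SNP minus wtKI was -1.01 ± 0.49 (-0.29 without SNP 1). Nat10 was the member with the largest positive difference in wtKI minus WT by the median of probe sets, 0.24 ± 0.49, and was at 0.05 by their mean.

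Among the 60S assembly factors, Pes1, Bop1 and Wdr12 form one complex that is needed to process the RNA of the large subunit, and their arrays were ordered differently. Pes1 was at 8.81, 8.74 and 8.95 in WT, 6.09, 7.92 and 8.63 in KO, 7.98, 8.32 and 8.82 in wtKI and 6.40, 8.51 and 7.61 in SNP. Every KO and SNP array lay below every WT array, KO minus WT was -1.29 ± 0.61 (adjusted p = 1) and SNP minus WT -1.33 ± 0.61 (adjusted p = 0.341), and replicate 1 was the lowest array of both groups. Without it they were -0.56 (KO 1 left out) and -0.78 (SNP 1 left out). Bop1 was at 7.34, 6.66 and 7.46 in WT, 6.62, 7.21 and 7.30 in KO, 6.61, 6.51 and 6.93 in wtKI and 6.27, 7.06 and 6.74 in SNP. Its wtKI arrays overlapped its SNP arrays, WT 2 was low too, and SNP minus wtKI was 0.01 ± 0.29 (0.22 without SNP 1). Wdr12 was at 9.76, 10.23 and 10.02 in WT, 9.54, 9.69 and 9.96 in KO, 9.76, 10.03 and 9.52 in wtKI and 8.49, 9.77 and 9.91 in SNP. SNP 1 was its one extreme low value, and the difference between the knock-ins went from -0.38 to 0.07 without it.

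Nop16, a 60S factor known as a MYC-responsive gene, had the smallest unadjusted p of the members in both comparisons of the variant. It was at 9.34, 9.27 and 9.56 in WT, 9.51, 9.55 and 9.44 in KO, 9.19, 9.50 and 9.04 in wtKI and 7.90, 8.94 and 8.67 in SNP. The 3 SNP arrays lay below all other 9 arrays. SNP minus wtKI was -0.74 ± 0.26 (limma adjusted p = 0.554) and SNP minus WT -0.89 ± 0.26 (adjusted p = 0.272), and they were -0.44 and -0.59 without SNP 1. Its KO arrays lay within the WT range (0.11 ± 0.26).

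Nop2, a methyltransferase of the large subunit RNA, was at 8.73, 7.95 and 8.47 in WT, 8.26, 8.60 and 8.59 in KO, 8.21, 7.95 and 7.95 in wtKI and 7.15, 8.21 and 7.48 in SNP. WT 2 and the wtKI arrays were close to SNP 2, so the groups overlapped, and SNP minus WT was -0.76 ± 0.29 (limma adjusted p = 0.299). Nucleostemin (Gnl3), a nucleolar GTPase abundant in stem and progenitor cells, was at 10.01, 9.57 and 10.02 in WT, 9.46, 10.22 and 10.03 in KO, 9.96, 9.92 and 9.84 in wtKI and 7.14, 9.87 and 9.62 in SNP. SNP 1 was far below every other array, and SNP minus wtKI went from -1.03 ± 0.56, the largest of any member with all arrays, to -0.16 without it. Rrp1b, a nucleolar regulator of ribosomal RNA processing, was at 7.92, 7.77 and 8.63 in WT, 8.16, 7.81 and 8.39 in KO, 6.85, 7.73 and 7.59 in wtKI and 7.13, 7.49 and 7.62 in SNP. It was lower in both knock-ins than in WT without overlap, with wtKI 1 the lowest array, and the knock-ins differed by 0.02 ± 0.30 (0.17 without SNP 1). Noc3l, which works in pre-60S assembly with Noc2l, was at 7.497, 7.60 and 7.49 in WT, 5.04, 7.59 and 7.94 in KO, 6.93, 7.78 and 7.96 in wtKI and 6.39, 7.55 and 7.19 in SNP. Its one extreme was KO 1, and KO minus WT was -0.67 ± 0.62 with all arrays and 0.23 without KO 1.

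The remaining 60S factors lay lower in SNP. Ebna1bp2 had SNP arrays all below WT, with -0.80 ± 0.28 (-0.45 without SNP 1). Rrs1, which brings the 5S particle into the large subunit, differed from wtKI by -0.45 ± 0.26 (-0.16 without SNP 1), on 1 probe set. Nip7 changed from -0.69 ± 0.55 to 0.10 between the knock-ins when SNP 1 was left out.

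Among the abundant nucleolar proteins, nucleolin and nucleophosmin differed least between the knock-ins with all arrays. Nucleolin (Ncl), which packs and regulates ribosomal DNA, was at 10.74, 10.79 and 10.88 in WT, 10.56, 10.72 and 10.87 in KO, 10.76, 10.79 and 10.64 in wtKI and 10.26, 10.79 and 10.88 in SNP. Nucleophosmin (Npm1), a histone chaperone often mutated in acute myeloid leukaemia, was at 10.97, 11.11 and 10.85 in WT, 10.99, 11.16 and 10.94 in KO, 10.95, 11.04 and 11.13 in wtKI and 10.14, 11.01 and 11.32 in SNP. In both genes SNP 1 was the lowest array and SNP 3 the highest or tied for it, and SNP minus wtKI was -0.09 ± 0.20 and -0.22 ± 0.27, or 0.10 and 0.12 without SNP 1. Nolc1, a chaperone of small nucleolar RNPs, was at 8.96, 8.64 and 8.93 in WT, 8.02, 9.05 and 8.95 in KO, 8.34, 8.71 and 8.70 in wtKI and 6.58, 8.67 and 8.09 in SNP. Ddx21, a helicase that joins polymerase I and II transcription with RNA processing, was at 9.11, 9.16 and 8.91 in WT, 8.39, 9.09 and 9.49 in KO, 8.78, 9.03 and 8.55 in wtKI and 7.39, 9.14 and 8.66 in SNP. Mybbp1a, a nucleolar protein that restrains ribosomal DNA transcription, was at 8.91, 8.05 and 8.63 in WT, 7.09, 8.79 and 8.59 in KO, 7.62, 8.27 and 8.51 in wtKI and 6.60, 8.25 and 7.32 in SNP. For these 3 genes SNP 1 was lowest, SNP 3 was below SNP 2, and KO 1 was well below KO 2 and KO 3. SNP minus WT was -1.07 ± 0.45, -0.67 ± 0.40 and -1.14 ± 0.50, and -0.47, -0.16 and -0.75 without SNP 1. Their SNP minus wtKI differences without SNP 1 were -0.20, 0.11 and -0.35.

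SNP 1 and KO 1 were lowest in partly different members. SNP 1 was below the mean of SNP 2 and SNP 3 in 39 of 39 members, with a median gap of -1.35. Over all genes it was below in 7601 of 14179, with a median of -0.06. The gap was more than 1 (log2) in 25 members (64.1%), where 13.6% of all genes were that far below. SNP 1 was the lowest of the 12 arrays in 33 members (84.6%) and in 23.8% of all genes. The gap was -2.61 in Gnl3, -2.56 in Wdr43, -2.38 in Nip7 and -2.31 in Utp20, and only -0.12 in Wdr3, -0.38 in Fbl and -0.43 in Rrp1b. KO 1 was below the mean of KO 2 and KO 3 in 36 members, with a median gap of -0.56 over the 39, and in 6922 of 14179 genes overall. It was below by more than 1 in 7 members (17.9%), where 11.5% of all genes were. Those 7 were Noc3l (-2.72), Pes1 (-2.18), Wdr75, Utp18, Mybbp1a, Noc4l and Rrp12. In 4 members the gap was over 1 on both arrays, and in 8 it was larger on KO 1. Across the 39 members the gaps of the 2 arrays had a Pearson r of 0.11, and 0.34 across all genes, given as a description since genes on an array share its RNA and amplification. Counted by probe set, SNP 1 was below both SNP 2 and SNP 3 in 472 of 575 member probe sets (82.1%) and in 46.4% of all, and KO 1 below both KO 2 and KO 3 in 433 (75.3%) and in 48.5% of all. Between the other SNP arrays, SNP 2 was above SNP 3 in 29 of 39 members, with a median difference of 0.27, and in 7420 of 14179 genes, with a median of 0.02.

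**Figure D3:**
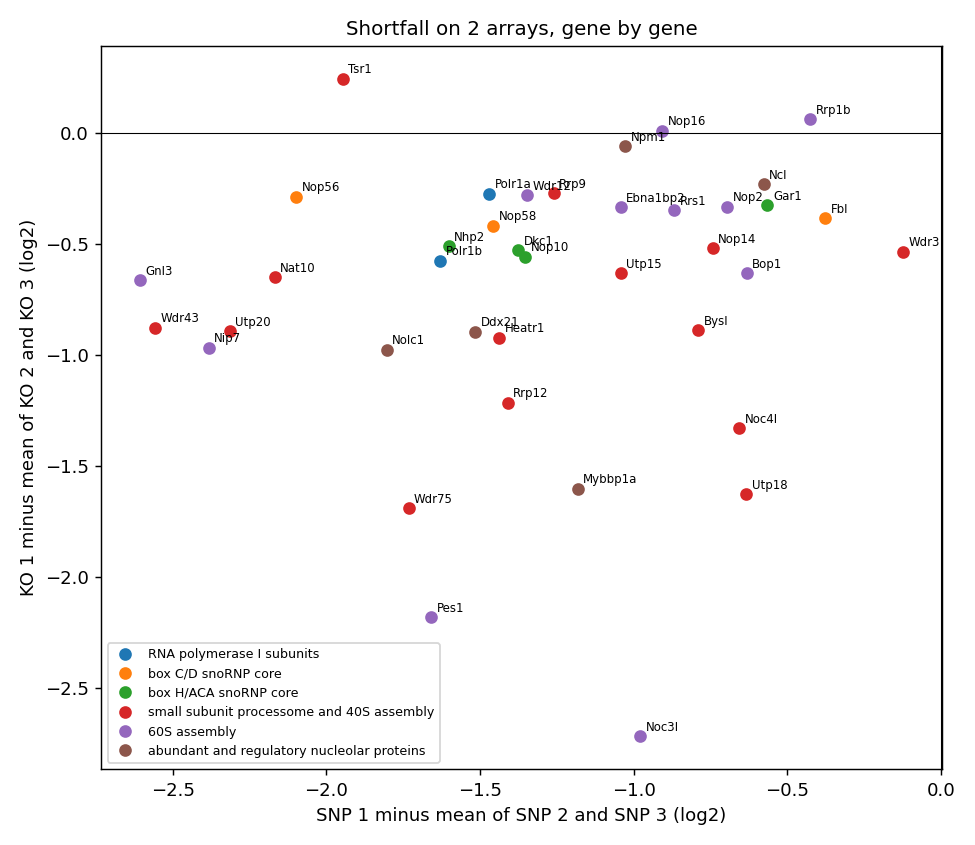
Each point is 1 of the 39 members, coloured by role: horizontal, SNP 1 minus the mean of SNP 2 and SNP 3 (log2), vertical, KO 1 minus the mean of KO 2 and KO 3 (log2). All points lie left of 0, from -2.61 (Gnl3) to -0.12 (Wdr3), while Noc3l at -2.72 and Pes1 at -2.18 are the lowest on the KO 1 axis.

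Other genes of the pathway, 83 with a value from 86 listed, went the same way and none passed in any comparison. In SNP minus wtKI, 75 of 83 were lower with a median of -0.42, and 12 (14.5%) had an unadjusted limma p under 0.05, all lower, where 4.91% of all genes were lower by that measure. Without SNP 1, 57 were lower with a median of -0.13. By role the medians were -0.39 for 12 genes of the polymerase I machinery, -0.39 for 33 other 40S factors and -0.43 for 38 other 60S factors. Polr1e, a subunit specific to polymerase I, had the lowest p of the pathway genes in this comparison, at 7.59, 7.78 and 7.31 in WT, 7.87, 8.21 and 8.24 in KO, 7.58, 7.64 and 8.24 in wtKI and 5.03, 6.72 and 6.90 in SNP. Its 3 SNP arrays lay below all other arrays, with a difference from wtKI of -1.60 ± 0.42 (limma adjusted p = 0.554), and it was -1.01 without SNP 1. Polr1g, another subunit of that enzyme, differed by -0.99 ± 0.52 (-0.43 without SNP 1). The largest differences of the other lists were -1.84 ± 0.74 for Nol11 and -1.37 ± 0.51 for Rcl1, both of the processome, and -1.24 ± 0.67 for Rrp15 and -1.09 ± 0.62 for Nifk of the 60S list, with adjusted p of 0.554 to 0.576. Without SNP 1 these 4 were -0.73, -0.59, -0.24 and -0.18. In the other comparisons the pathway medians were -0.57 for SNP minus WT (78 of 83 lower, -0.34 without SNP 1), -0.17 for wtKI minus WT (66 lower) and -0.14 for KO minus WT (55 lower). Without KO 1 the last was 0.07, with 28 of 83 lower.

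The transcription factor Myc was lowest on SNP 1, KO 1 and SNP 3, where the members were lowest too. The KO and SNP arrays stood in the same order for both, and WT 2 was the lowest WT array for both. The wtKI arrays stood in another order, with wtKI 3 the lowest of them for the members and the highest for Myc. The members' median offset was -0.20 on wtKI 1 and -0.22 on wtKI 3, where Myc was above its WT mean of 9.34. For Myc, wtKI minus WT was 0.33 ± 0.55, and a link with the members was not tested. Myc was at 9.67, 8.85 and 9.49 in WT, 8.20, 9.63 and 9.60 in KO, 9.53, 9.66 and 9.83 in wtKI and 7.22, 9.72 and 8.51 in SNP. SNP 1 had the lowest value of the 12, then KO 1 and SNP 3, and wtKI 3 the highest, so the SNP and wtKI arrays overlapped through SNP 2. SNP minus wtKI was -1.19 ± 0.55 (limma adjusted p = 0.554), and -0.56 without SNP 1. Of the 8 measured genes of the MYC family 5 were lower with a median of -0.10, 6 with a median of -0.24 without SNP 1, and 3 with a median of 0.11 by the probe set with the highest mean. Mxd1, which competes with MYC for the partner MAX, had the largest positive difference, 1.31 ± 0.77 (0.16 without SNP 1). Cell cycle genes, 21 measured, averaged 8.55 on SNP 1 and 8.70 on SNP 3 against 8.77 to 9.27 on the other 10 arrays.

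**Figure D4:**
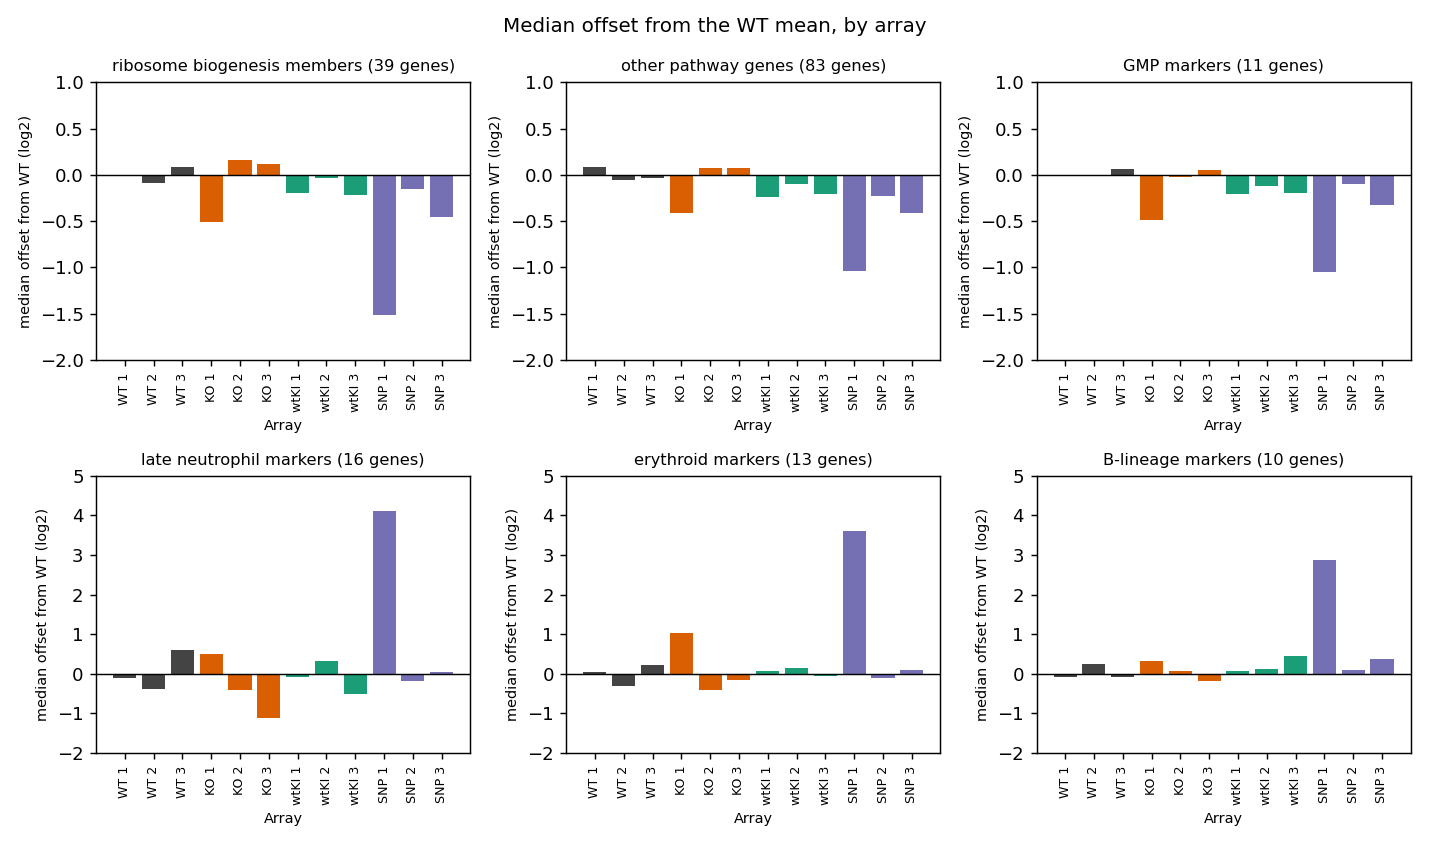
Bars give the median offset from the WT mean (log2) on each of the 12 arrays, coloured by genotype, for the members, the other pathway genes and 4 marker lists (the lower panels share a wider axis). SNP 1 is lowest for members at -1.51, other pathway genes and GMP markers, and highest for late neutrophil, erythroid and B-lineage markers.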

How the data were processed

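GMPs of 4 genotypes were measured on 12 arrays, 3 per genotype, grouped by their labels. The deposited values are log2 signals made by the authors with RMA, per the submitters' processing notes (settings not given in the sources used here). Of 105661 probe sets, 98975 have 1 gene symbol in the platform annotation, 1703 several and 4983 none, and only the first were used. Symbols were updated for 1779 genes through a RefSeq table of GRCm38.p6, which held 14143 of the 14179 genes. Every probe set reaches at least 6.14 on some array, so genes low everywhere are not in the table, and all members with a value passed that unstated filter. Array medians ran from 7.32 to 7.58, and the number of arrays limits the precision. The lowest medians were those of SNP 1 (7.32), KO 1 (7.37) and SNP 3 (7.38), the arrays on which the members were lowest. The 5th percentile was 4.39 on SNP 1 and 4.40 on KO 1, and 5.30 to 5.65 on the others. After median centring of each array's gene values, the median member difference in SNP minus wtKI was -0.50.

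A gene's value was the median of its probe sets. Comparisons used limma 3.58.1 in R 4.3.3 (lmFit, eBayes), fitted to the 12 arrays together, and p-values were adjusted by Benjamini-Hochberg over 14179 genes with 0.05 as the threshold. The 4 groups share an estimate of spread for each gene, so SNP 1 enters the standard errors and p-values of KO minus WT and wtKI minus WT too. For Wdr43 in KO minus WT the standard error was 0.56, and 0.24 without SNP 1. The pipeline was tested on simulated data with independent normal noise and a fixed shift of some genes on the KO arrays. That simulation held no outlying array, so it does not show how the fits behave with SNP 1 or KO 1. Alternatives were other gene summaries, median centring, quantile normalization, a filter on the dimmest 30% of genes, array weights, a trend with a robust prior, only the groups compared, a replicate block, sex as a term, and leaving out arrays. The members and lists were chosen with earlier results of these data known. Every member was named. Array values were given for members listed in the plan and the 3 largest differences per direction and comparison, start sites for members with the lowest p or an E-box, the latter chosen after the matches were seen, and from each other list the 2 genes with the largest difference between the knock-ins. Late neutrophil, erythroid, B-lineage, GMP and cell cycle lists served as markers.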

Additional observations from a re-analysis of the deposited data

How the results depend on the processing

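In the 4 comparisons, no member passed under any of the 25 alternatives that could be fitted, nor when the 575 probe sets were tested singly. The smallest adjusted p of a member over all alternatives was 0.102, in SNP minus WT. The median member difference in SNP minus WT moved most, to -0.25 without SNP 1 (the same with KO 1 also left out) and to -0.21 with sex as a term and SNP 1 left out. That last alternative, chosen after the data were seen, gave -0.0142 in SNP minus wtKI. Leaving out each array in turn gave medians of -0.23 to 0.11 for KO minus WT, -0.81 to -0.16 for SNP minus wtKI, -0.29 to -0.13 for wtKI minus WT and -1.05 to -0.25 for SNP minus WT, and 0 members passing each time. The median for KO minus WT was above 0 without KO 1, and the other 3 kept their sign. Within the 4 comparisons, same-numbered arrays of the groups compared did not deviate together (correlations of -0.048 to 0.091 across genes). KO with SNP was not among these pairs, and the gaps of KO 1 and SNP 1 had a Pearson r of 0.34 across all genes. With the replicate number as a block 0 members passed in all 4 comparisons. The unadjusted limma p was then under 0.05 for 18 members in SNP minus WT (10 without the block) and 3 in SNP minus wtKI (2 without it).

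Without SNP 1, and so with fewer arrays, the sign of 17 member differences turned. In SNP minus wtKI these were Polr1a 0.21, Polr1b 0.0355, Dkc1 0.0062, Heatr1 0.0399, Utp18 0.10, Utp20 0.13, Wdr43 0.0581, Tsr1 0.22, Wdr12 0.0673, Nip7 0.10, Ncl 0.10, Npm1 0.12 and Ddx21 0.11, and in SNP minus WT Wdr43 0.0329, Tsr1 0.0282, Ncl 0.0303 and Npm1 0.19. With the mean of the probe sets in place of the median, the sign turned in KO minus WT for Dkc1 0.065, Utp18 0.0541, Nat10 -0.16, Bop1 0.10, Nop16 -0.0593, Gnl3 -0.16, Ncl 0.0713, Npm1 -0.0182 and Ddx21 0.0485, in SNP minus wtKI for Bop1 -0.22 and Rrp1b -0.27 and in wtKI minus WT for Nop58 0.0411, Noc3l -0.0372, Gnl3 -0.0196 and Npm1 -0.0838; the cause was not tested. Signal near background limits the dimmest values, and the table holds no genes that are low on every array.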
